A study of Mus musculus with 34 samples.

Results

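Mouse liver samples induced with dN90-beta-catenin, a form of beta-catenin that lacks its N terminus, were compared with 7 non-tumour livers. The members were chosen by the source label alone: 4 dN90 induced libraries against 2 wild type livers, 3 livers labelled with the beta-catenin skip1 isoform alone and 2 labelled with the skip2 isoform alone, 11 of the 34 libraries of the series and of the 18 in its normalized count table. Skip1 and skip2 are exon-skipped forms of beta-catenin. The labels give hydrodynamic delivery, in which a large volume pushed quickly into the tail vein carries plasmid into hepatocytes, and total RNA taken from frozen liver tumours, as the handling of every sample, the wild type and isoform alone livers included. Non-tumour here means a label that does not say induced. The labels name no promoter, no second plasmid given with dN90-beta-catenin, no sex and no strain, and do not say whether a tumour was cut away from the liver around it. For the 2 skip2 alone libraries another label field repeats skip1, and the source label was used. No label says whether the replicates are different mice, and the p-values below then reflect only how these libraries scatter, which may be technical.

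Beta-catenin joins cadherins to the actin cytoskeleton and also carries the Wnt signal. Without Wnt, the destruction complex of Axin, APC and GSK3 has its N terminus phosphorylated and the protein is degraded, so a form without the N terminus is stable and acts with TCF factors on target genes. In normal liver this signal is strongest around the central vein, where hepatocytes make glutamine from ammonia with glutamine synthetase, and low around the portal vein, where hepatocytes run the urea cycle, gluconeogenesis and amino acid breakdown. High glutamine synthetase is a widely used mark of liver tumours with active beta-catenin.

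Of 14086 genes in the table, 6592 had a mean normalized count of at least 10 over the 18 libraries and were tested. On the log2(value + 1) scale, 1161 genes were higher (17.6% of those tested) and 1319 were lower (20%) in the dN90 induced livers at an adjusted p under 0.05 (limma, Benjamini-Hochberg), 37.6% in all. The 4 dN90 values lay above all 7 non-tumour values for 665 genes (10.1%) and below them for 881 (13.4%). Falls outnumbered rises most among the largest changes: 32 called genes fell and 5 rose by at least 5 on the log2 scale. By at least 1, 634 fell and 605 rose, by at least 2, 173 fell and 147 rose, and by at least 3, 88 fell and 51 rose. The first principal component held 61.1% of the variance, and the non-tumour livers lay between -35.6 and -26.1 on it and the dN90 induced livers at 46.2, 49.9, 61.2 and 64.7.

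The groups differed in scale as well. Estimated reads per library were 451436 ± 89301 (SD, n = 4) in dN90 induced and 563241 ± 106749 (n = 7) in non-tumour livers (exact permutation test, two-sided, p = 0.121), so that low genes are measured coarsely. The deposited values of a library summed to 445193 ± 9001 against 649415 ± 33049 (exact permutation p = 0.00606, the smallest that 330 splits allow). Scaled to an equal total per library, the median log2 difference of all genes moved from 0.009 to 0.53 and the split became 3055 higher and 550 lower, while upper-quartile scaling gave 1473 and 1070. Of the 4112 genes not called here, 1894 were called higher and 0 lower with equal totals, so a small rise or a value near 0 turns on the scale. Counts with equal totals stand beside the lists below. They are to be read beside the 3055 higher and 550 lower of all 6592 genes under that scaling. List counts without it are to be read beside the 17.6% higher and 20% lower of all genes tested.

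**Figure D1:**
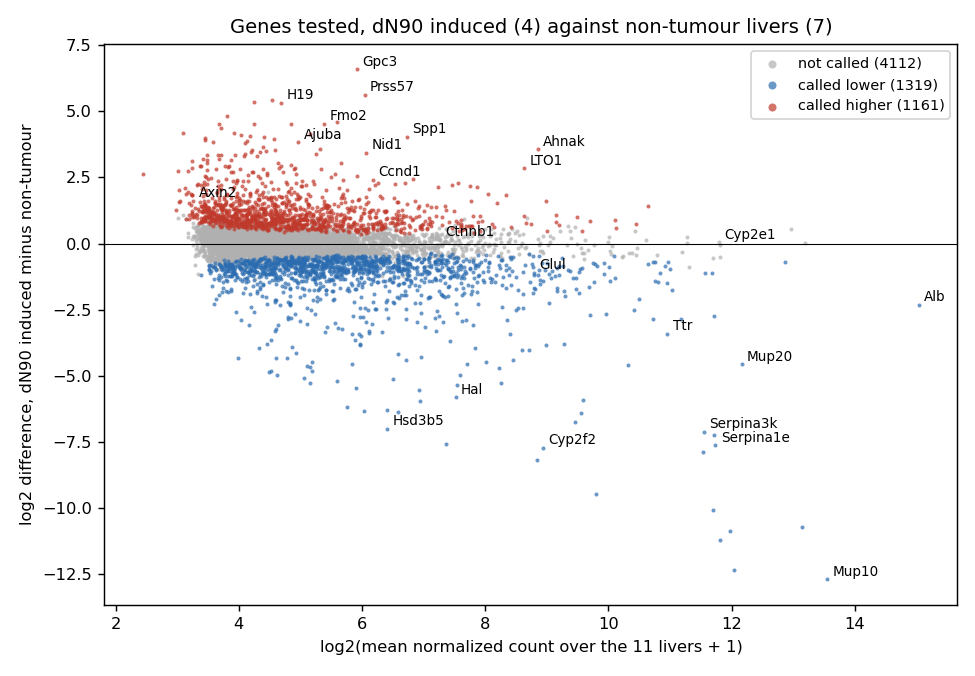
Log2 difference between dN90 induced (4) and non-tumour (7) livers for each gene tested, against log2 of the mean normalized count over the 11 livers plus 1. Grey points are not called, red points are called higher (1161) and blue points called lower (1319), and the most abundant genes that fell, from Alb to the Mup genes, lie at the lower right.

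The messenger for beta-catenin itself did not mark the group. Ctnnb1 stood at 135, 150.0, 171 and 199 in dN90 induced replicates 1 to 4 and at 125 to 177, median 148 in the non-tumour livers, and the ranges overlapped (log2 difference 0.16, SE 0.19, adjusted p = 0.528). With equal totals the log2 difference was 0.70 and was called. A gene total cannot separate the truncated form from the mouse's own messenger, so it does not check the label. Of 13 tested members of a list of 22 beta-catenin partners, 3 rose (Jup, Ctnna1 and Gsk3b) and 1 fell (Lrp6), with a median log2 difference of 0.33 beside 0.009 for all genes, and 9 rose and none fell with equal totals. The 3 rises and 1 fall are 23.1% and 7.69% of those tested, beside 17.6% and 20% of all genes tested. Ctnna1, the alpha-catenin that links beta-catenin to actin, was at 148, 121, 159 and 141 against 73.1 to 101, median 88.8, with no overlap (log2 difference 0.69, SE 0.14, adjusted p = 0.000556). Jup, plakoglobin, the close relative of beta-catenin in desmosomes, also rose (log2 difference 0.96, SE 0.23, adjusted p = 0.00243), though not against the wild type livers alone (adjusted p = 0.0838). Gsk3b, a kinase of the destruction complex (log2 difference 0.56, SE 0.21, adjusted p = 0.0427), and the Wnt co-receptor Lrp6 (log2 difference -0.46, SE 0.17, adjusted p = 0.036) passed narrowly. Of the 11 fits that left out 1 library, Gsk3b lost the call in 8, all but those without wild type replicate 2, skip1 alone replicate 3 or dN90 induced replicate 2 (adjusted p = 0.0503 to 0.174). Lrp6 lost it in the 4 without skip1 alone replicate 2 or 3 or dN90 induced replicate 3 or 4 (adjusted p = 0.0645 to 0.176) and changed sign when totals were made equal (0.07). Apc, Axin1 and Cdh1, which encodes E-cadherin, were not called (log2 differences 0.15, 0.33 and 0.34).

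Among a list of Wnt target genes, several of which feed back on the pathway, some rose and others did not. Axin2, the textbook target and a brake on the pathway, was at 26.7, 15.3, 12.5 and 7.95 in the dN90 induced livers and at 1.64 to 9.14, median 4.12 in the others. Replicate 1 was highest, and replicate 4 lay below the highest non-tumour liver (log2 difference 1.62, SE 0.41, adjusted p = 0.00347), and against the wild type livers alone the call was lost (adjusted p = 0.0761). Tnfrsf19, a receptor gene induced by beta-catenin, was at 42.8, 25.1, 38.6 and 44.9 against 0 to 7.09, median 2.37, 10.7-fold higher in the mean with no overlap (log2 difference 3.32, SE 0.39, adjusted p = 1.04e-06). Rnf43, a ubiquitin ligase that removes Wnt receptors, rose too (41.5, 25.9, 31.8 and 33.9 against 9.27 to 17.7, log2 difference 1.31, adjusted p = 0.000274), and its partner Znrf3 was not called (0.41). Ccnd1, cyclin D1, reached 129.8, 63.3, 179 and 234 against 18.3 to 34.5, median 23.3, with every dN90 value above every other (log2 difference 2.42, SE 0.26, adjusted p = 3.13e-07). Against these stood the R-spondin receptor Lgr4, which fell without overlap (16.5, 14.3, 18.8 and 15.9 against 33.5 to 52.2, log2 difference -1.28, adjusted p = 4.42e-05), and Notum, a secreted Wnt inhibitor, which was not called (7.87, 12.2, 10.03 and 5.96 against 6.90 to 18.1, log2 difference -0.49, 0.006 with equal totals). Lgr5, Nkd1 and Myc did not pass the filter on low values. Lgr5, the receptor that marks the hepatocytes next to the central vein, was at 3.15, 3.06, 3.76 and 0.993 against 0 to 9.14, median 3.45. Of 7 tested members 4 rose and 1 fell (5 and 1 with equal totals). Axin2 and Tnfrsf19 lay under 10 in every non-tumour liver, so they passed the filter only through tumour libraries. The count therefore describes the members that passed and is no evidence for the list.

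The pericentral list was mixed, with more falls than rises. Glul, which encodes glutamine synthetase, was at 565, 408, 157 and 86.4 in the 4 dN90 induced livers and at 329 to 636, median 543 in the others. Replicates 1 and 2 lay inside the non-tumour range and replicates 3 and 4 below it. The difference passed narrowly (log2 difference -1.11, SE 0.41, adjusted p = 0.0396). It lost the call in 8 of the 11 fits without 1 library, all but those without skip1 alone replicate 2 or dN90 induced replicate 1 or 2. Adjusted p was 0.0507 to 0.228 there, the last without dN90 induced replicate 4. The call was also lost against each non-tumour group alone, with depth as a covariate and with equal totals (log2 difference -0.57, adjusted p = 0.261). It was positive under none of the settings tried. Slc1a2, the glutamate transporter of the same cells, ran in the same order at 151, 77.3, 25.6 and 6.14 against 93.9 to 266, median 157 (log2 difference -2.07, SE 0.51, adjusted p = 0.00311), with a log2 difference of -1.26 without replicate 4 and -2.73 without replicate 1, and no call against the wild type livers alone (adjusted p = 0.118). Oat, ornithine aminotransferase, was at 303, 208, 123 and 30.8 against 281 to 584, median 424 (log2 difference -1.68, SE 0.39, adjusted p = 0.00199), with a log2 difference of -1.02 without replicate 4. For these genes replicate 4 was the lowest and replicate 1 the highest. In whole tissue, fewer cells of a type and less RNA per cell cannot be told apart.

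The pericentral P450 genes did not move as one. Cyp1a2 was at 68.4, 45.9, 28.8 and 20.9 against 140.4 to 378, median 338 (log2 difference -2.90, SE 0.33, adjusted p = 7.57e-07), and Cyp2c29 at 111, 86.7, 38.9 and 15.9 against 469 to 1096, median 649 (log2 difference -3.83, SE 0.53, adjusted p = 9.45e-06). Cyp2e1, the ethanol-metabolizing P450 and a classic pericentral gene, was at 4855, 3425, 3142 and 2915 against 1794 to 5172, median 3500.4 and was not called (log2 difference 0.06, 0.60 and called higher with equal totals). The transcription factor genes Tbx3 and Ahr rose (log2 differences 0.89 and 1.10), both without overlap. Of the 18 members of this list that passed the filter (20 listed), 9 fell and 2 rose, with a median of -0.54. With equal totals 6 fell and 5 rose, and against the wild type livers alone 4 fell and none rose.

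The periportal programme fell throughout. All 16 tested members of a list of 17 were lower, with no overlap for any of them and a median log2 difference of -2.48, and 14 stayed called with equal totals. Cyp2f2, the P450 that marks periportal hepatocytes, was at 1.57, 8.16, 6.27 and 0 against 607 to 1028, median 769, 192-fold lower in the mean (log2 difference -7.71, SE 0.57, adjusted p = 1.46e-09; -7.09 without replicate 4). Hal, histidine ammonia-lyase, was at 2.36, 8.16, 5.02 and 1.99 against 169 to 421, median 292 (log2 difference -5.82, SE 0.39, adjusted p = 3.94e-10). Sds, serine dehydratase, was read once in replicate 1 and not at all in the other dN90 induced livers, against 21.6 to 69.03 in the non-tumour livers, a ratio of about 137 from 1 read, with an exact interval for counting error of 24.3 to 5440. Gls2, the liver glutaminase that feeds ammonia to the urea cycle, fell as well (30.2, 25.4, 33.8 and 6.15 against 125 to 318, log2 difference -2.95, adjusted p = 8.34e-06).

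Urea cycle and gluconeogenic genes, which sit mostly in the same zone, were lower too. For the urea cycle 7 of 8 members fell (median -1.35). That count was 5 with equal totals, 4 with depth as a covariate and 4 against the wild type livers alone. Otc, ornithine transcarbamylase, was at 51.1, 28.6, 16.3 and 24.8 against 135 to 208, median 176 (log2 difference -2.61, SE 0.36, adjusted p = 8.25e-06). Arg1, arginase, and Cps1, the entry enzyme, were low in replicate 4 in particular. Arg1 was at 297, 334, 327 and 56.6 against 632 to 1004, median 813 (log2 difference -1.997, SE 0.45, adjusted p = 0.00153; -1.38 without replicate 4). Cps1 was at 2797, 2324, 2649 and 617 against 2935 to 5061, median 3994 (log2 difference -1.11, SE 0.40, adjusted p = 0.0355), and its call was lost in 4 of the fits without 1 library, with adjusted p of 0.0522 without skip2 alone replicate 1, 0.0558 without skip2 alone replicate 2, 0.0591 without skip1 alone replicate 2 and 0.223 without dN90 induced replicate 4. Nags, which makes the activator of Cps1, was the member not called (-0.08). Ass1, argininosuccinate synthase, had values of 0 in replicates 2 and 3 while the near-identical gene model Gm5424 held most of the reads, so both were summed. The sum was 805, 562, 648 and 185 against 1663 to 2964 (median 1877), with no overlap. For gluconeogenesis 4 of 8 tested members fell and none rose (median -1.11; 4 and 1 with equal totals). G6pc, the phosphatase that releases free glucose, was at 14.2, 37.7, 7.53 and 25.8 against 139 to 483, median 229 (log2 difference -3.66, SE 0.35, adjusted p = 6.36e-08), and Pck1, the rate-limiting PEP carboxykinase, at 345, 373, 123 and 144 against 1014 to 2055, median 1419.6 (log2 difference -2.67, SE 0.38, adjusted p = 1.31e-05). Pcx, pyruvate carboxylase, was not called (-0.07).

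**Figure D2:**
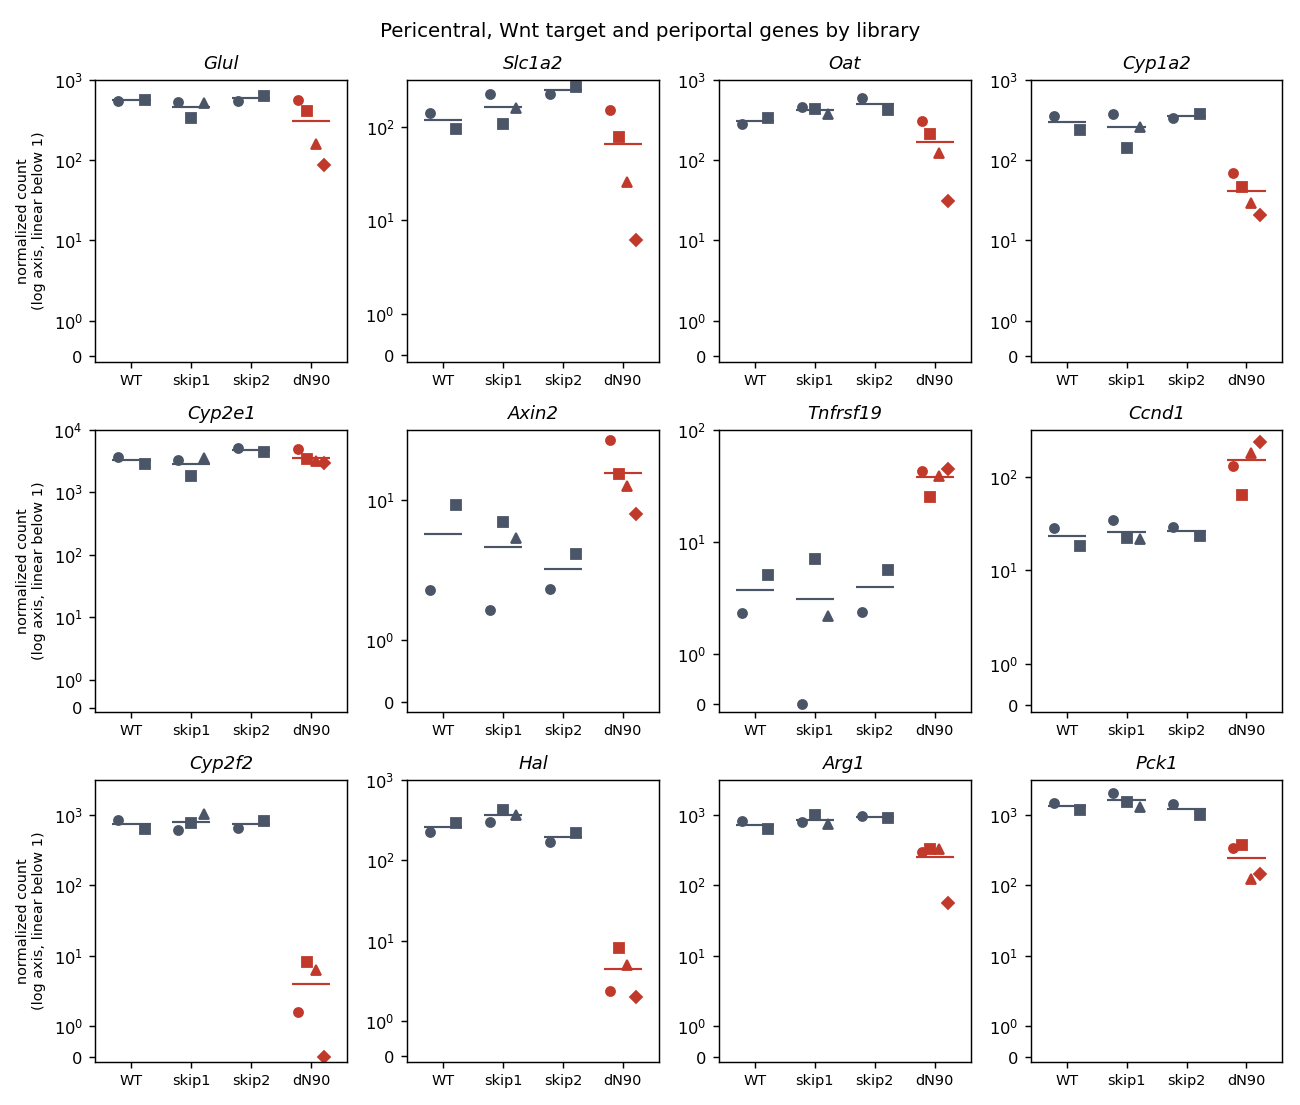
Normalized counts of 8 pericentral or Wnt target genes and 4 periportal genes in each library (logarithmic axis, linear below 1). Grey points are wild type (WT), skip1 alone and skip2 alone livers, red points dN90 induced livers, marker shapes are replicates 1 to 4 and bars are group means. Glul, Slc1a2 and Oat spread over a wide range in the dN90 induced livers, while Cyp2f2 and Hal are far below the non-tumour livers in each of them.

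The genes of the differentiated hepatocyte split into some that fell steeply and others that were not called. Alb, albumin, was at 11585, 9916, 7945 and 8439 against 36733 to 54545, median 50193, 5.01-fold lower in the mean (log2 difference -2.33, SE 0.33, adjusted p = 1.33e-05). Ttr, transthyretin, was at 395, 287, 225 and 228 against 2597 to 3246, median 3074 (log2 difference -3.41, SE 0.24, adjusted p = 7.22e-10). Serpina1e, an alpha-1 antitrypsin gene, was at 9.44, 14.3, 47.7 and 55.6 against 3547 to 7653, median 4997, 168-fold lower (log2 difference -7.63, SE 0.45, adjusted p = 7.51e-11), and Serpina3k at 83.4, 81.6, 20.1 and 7.95 against 4059 to 5345, median 4639 (log2 difference -7.11, SE 0.47, adjusted p = 3.81e-10; -6.47 without replicate 4). The other alpha-1 antitrypsin genes fell less, with log2 differences of -2.74 for Serpina1c, -2.52 for Serpina1d and -1.46 for Serpina1a, although reads between such close copies may have been split in counting. Trf, transferrin, was at 10449, 9069.5, 8924 and 8828 against 6545 to 11899, median 9576. Apoa1, the main HDL protein, was at 2901, 2507, 2569 and 2033 against 2102 to 2892, median 2448. Ahsg, fetuin-A, was at 3349.9, 2578, 4244 and 3984 against 3062 to 4429, median 3414. All 3 overlapped and none was called (log2 differences 0.01, 0.01 and -0.05, and 0.56, 0.55 and 0.49, called higher, with equal totals). Of 26 members of this list 19 fell and none rose (median -0.78). With equal totals 9 fell and 5 rose, so the smaller falls depend on the scale. Relative to the median of all genes, the list median was -0.79 here and -0.76 with equal totals.

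The transcription factors of the hepatocyte did not share the fall. Hnf4a, the master regulator of hepatocyte identity, was at 421, 445, 490.1 and 347 against 427 to 718, median 484 (log2 difference -0.26, not called), and Cebpa, Foxa3 and Prox1 were not called either (-0.11, -0.09 and 0.22). Of 18 tested factors Nr1h4, the bile acid receptor FXR (log2 difference -0.77, SE 0.23, adjusted p = 0.0109), and Thrb, a thyroid hormone receptor (log2 difference -0.82, SE 0.29, adjusted p = 0.0298), fell. Thrb lost the call in 4 of the 11 fits without 1 library (adjusted p = 0.0566 to 0.0933, without dN90 induced replicate 2, 3 or 4 or skip2 alone replicate 2), and both lost it with equal totals, when none of the list fell and 3 rose.

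The male liver programme held the lists with the lowest medians. Male mouse liver secretes major urinary proteins (Mup), pheromone carriers, and expresses a set of P450 and steroid genes that depend on the pulsed growth hormone of males. Summed over 18 Mup genes, whose near-identical copies share reads, the dN90 induced livers held 700.5, 383, 253 and 404 and the non-tumour livers 41790.2 to 105946, a mean of 435 ± 189 (SD, n = 4) against 77575 ± 21919 (n = 7). That is 178-fold lower (log2 difference -7.51, exact permutation test, two-sided, p = 0.00606). In non-tumour livers this family made up 6.68% to 16.7% of all normalized counts and in dN90 induced livers 0.0557% to 0.155%. Of the 16 tested Mup genes 16 fell, with a median of -8.04, or -8.32 with the 2 genes at 0 in every dN90 induced liver put at their bound. Mup10, on chromosome 4, was at 55.1, 0, 0 and 0 against 10673 to 24218, median 19415 (log2 difference -12.69, -14.14 without replicate 1), and Mup20, the pheromone called darcin, at 554, 234, 196 and 285 against 5009 to 9158, median 6794 (log2 difference -4.57, SE 0.24, adjusted p = 7.77e-12).

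Other male-biased genes went the same way, 11 of 11 tested lower without overlap (median -5.09), and 11 with equal totals. Hsd3b5, a male-specific steroid enzyme, had no read in any dN90 induced liver against 81.7 to 188, at least 182-fold lower if 3 reads over the group are allowed. Elovl3, a fatty acid elongase, likewise had no read. The non-tumour livers were uneven for it, at 11.3 and 222 in wild type, 16.4, 131 and 240 in skip1 alone and 13.9 and 13.7 in skip2 alone. Cyp4a12a was at 2.36, 0, 0 and 1.99 against 110.4 to 181, median 146 (log2 difference -6.37, SE 0.32, adjusted p = 6.63e-12), and Cyp7b1, an oxysterol hydroxylase, at 1.57, 4.08, 3.76 and 2.98 against 106 to 179, median 138 (log2 difference -5.13, SE 0.26, adjusted p = 6.63e-12). Slco1a1, a male-biased anion transporter, was at 7.08, 17.3, 3.76 and 3.97 against 70.7 to 174, median 151 (log2 difference -4.19, SE 0.29, adjusted p = 6.73e-10).

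Genes that are higher in female liver were mostly too low to test, and the clearest of them rose. Fmo2, a flavin monooxygenase, was at 118, 105, 133 and 65.3 against 1.07 to 7.96, median 4.13, 26.9-fold higher (log2 difference 4.53, SE 0.30, adjusted p = 3.81e-10). The next members did not pass the filter and were not tested. Cyp2b9 was at 4.72, 9.18, 10.03 and 14.9, and at 0 in all 7 non-tumour livers. Cux2, a female-specific liver transcription factor, was at 13.4, 10.3, 26.5 and 5.995 against 0 to 1.38. Cyp17a1 overlapped (9.44, 10.2, 10.03 and 2.98 against 1.07 to 17.3), and Prlr, the prolactin receptor, was not called (0.29). Of 15 listed genes 6 were in the table. Fmo2 also lay under 10 in every non-tumour liver and passed the filter only through tumour libraries, so its rise is no evidence for the list.

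Labels give no sex, and the Y-linked genes Ddx3y, Eif2s3y and Kdm5d, looked at after these values were seen, were read in all 11 livers. Uty, also Y-linked, was at 0 in skip1 alone replicate 1 and was read in every other liver. Ddx3y was at 22.02, 13.3, 8.78 and 11.9 in the dN90 induced livers against 12.4 to 26.6, median 21.5 and Eif2s3y at 13.6, 12.5, 12.8 and 19.3 against 11.7 to 25.2, median 16.4, neither called (log2 differences -0.50 and -0.25). Xist, the RNA of the inactive X, did not exceed 4.67 in the dN90 induced livers or 6.82 in the others. Ghr, the growth hormone receptor, also named after its value was seen, was at 59.9, 42.8, 32.8 and 23.2 against 241 to 396, median 324, 8.23-fold lower without overlap (log2 difference -3.07, SE 0.23, adjusted p = 1.4e-09). Its target Igf1 was at 120.2, 147, 108 and 41.96 against 176 to 280.3, median 228 (log2 difference -1.26, SE 0.26, adjusted p = 0.000791), and Igfals, the carrier of IGF1 in blood, at 12.7, 6.19, 10.1 and 3.01 against 28.04 to 46.5, median 38.4 (log2 difference -2.25, SE 0.27, adjusted p = 1.44e-06). Stat5b, which carries the growth hormone signal, was not called (-0.22).

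**Figure D3:**
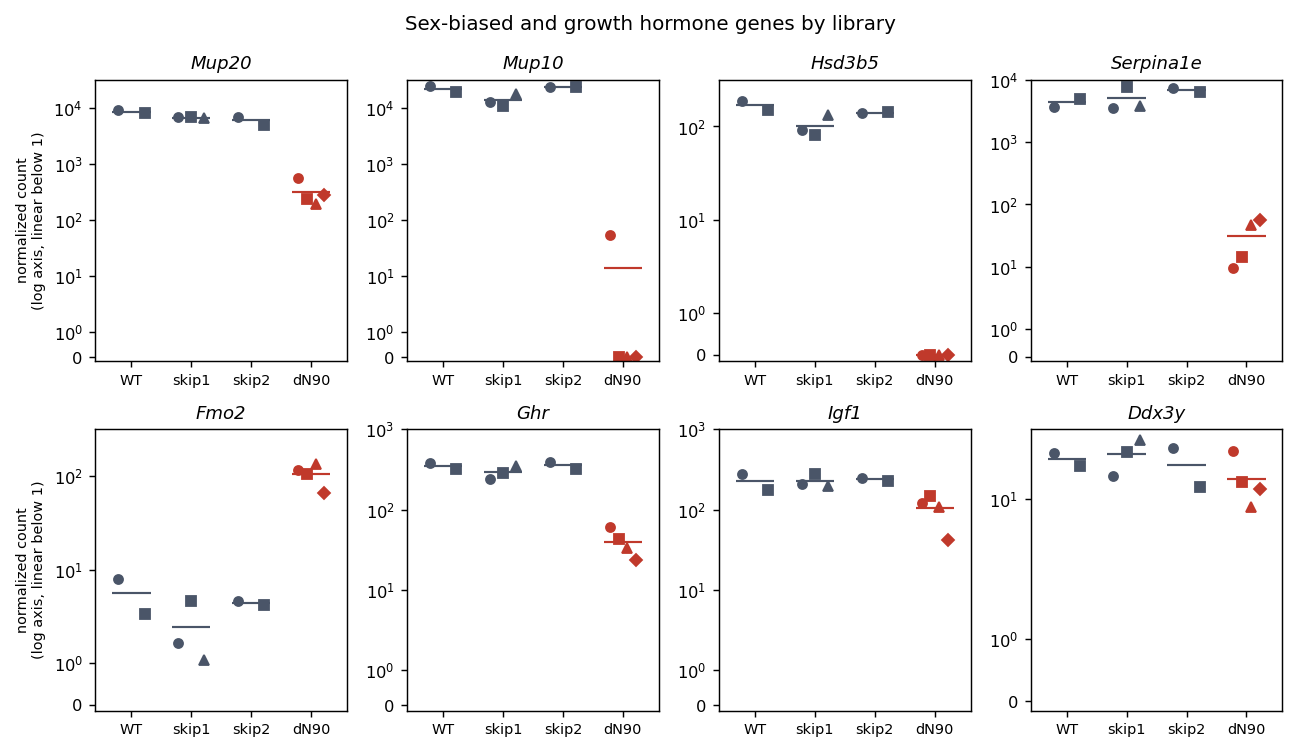
Normalized counts of male-biased genes (Mup20, Mup10, Hsd3b5), Serpina1e, the female-biased Fmo2, growth hormone axis genes (Ghr, Igf1) and the Y-linked Ddx3y in each library (logarithmic axis, linear below 1). Grey points are wild type (WT), skip1 alone and skip2 alone livers, red points dN90 induced livers, marker shapes are replicates and bars are group means. Hsd3b5 is at 0 in the 4 dN90 induced livers, whereas Ddx3y overlaps between the groups.

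Targets of YAP, the Hippo pathway coactivator that works through TEAD factors, rose. Of 24 listed genes with a value, 14 passed the filter, 10 of these rose and none fell (median 1.43), and the same counts came with upper-quartile and quantile scaling, 12 and 0 with equal totals. A gene near 0 in the non-tumour livers could pass the filter only through the tumour libraries, so for this and the other lists of low genes below the counts describe the members that passed and are no evidence for the list. Ccn1, the matrix protein CYR61 and the best known YAP target, was at 81.01, 27.5, 72.7 and 40.7 against 2.75 to 13.9, median 4.62, 9.53-fold higher (log2 difference 3.06, SE 0.32, adjusted p = 2.12e-07). Ajuba, a LIM protein that restrains the LATS kinases, was at 65.3, 52.03, 112 and 67.6 against 0 to 7.93, median 6.58 (log2 difference 3.83, SE 0.41, adjusted p = 2.66e-07). Amotl2, an angiomotin that binds YAP, was at 97.5, 53.05, 124 and 77.5 against 4.62 to 19.7, median 11.3 (log2 difference 2.84, SE 0.30, adjusted p = 2.8e-07). None of these 3 overlapped between the groups. Ptpn14, Myof and the factor gene Tead1 rose as well (log2 differences 3.48, 3.46 and 2.01). Ankrd1 and Ccn2, also targets, did not pass the filter. Ankrd1 had no read in the 7 non-tumour livers and was at 22.02, 2.04, 26.3 and 14.9, at least 33.1-fold higher, and Ccn2 was at 18.1, 10.2, 17.6 and 18.9 against 0 to 5.75, median 2.13. Yap1 itself was at 29.2, 25.6, 51.7 and 25.6 against 27.3 to 46.3, median 41.1 and was not called (log2 difference -0.23, 0.30 with equal totals). A gene total cannot separate a delivered YAP from the mouse's own messenger. Other libraries of the series carry YAP in their source label. The dN90 labels do not say whether YAP was delivered as well, and this was not tested. Amotl1, Dock5, Asap1 and Ccdc80 were not called (-0.62, -0.33, 0.21 and 0.49).

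The promoters of 3 of these targets are printed to show the TEAD core CATTCC, read on either strand as CATTCC or GGAATG, in capitals. Each is the 250 bases before the RefSeq start (GRCm38.p6), 5′ to 3′ on the gene's strand, and all 3 genes lie on the minus strand: Ccn1 at chr3:145649986-145650235, Ankrd1 at chr19:36119845-36120094 and Ajuba at chr14:54577662-54577911.
Ccn1: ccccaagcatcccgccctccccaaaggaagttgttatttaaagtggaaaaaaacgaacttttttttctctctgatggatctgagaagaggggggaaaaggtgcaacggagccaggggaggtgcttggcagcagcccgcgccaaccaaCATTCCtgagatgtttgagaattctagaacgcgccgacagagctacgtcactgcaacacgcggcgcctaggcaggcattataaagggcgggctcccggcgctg
Ankrd1: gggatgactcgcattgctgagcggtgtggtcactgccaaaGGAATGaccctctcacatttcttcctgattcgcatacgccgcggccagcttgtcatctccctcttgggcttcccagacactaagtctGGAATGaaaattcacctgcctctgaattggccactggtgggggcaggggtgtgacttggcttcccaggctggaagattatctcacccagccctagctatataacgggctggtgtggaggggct
Ajuba: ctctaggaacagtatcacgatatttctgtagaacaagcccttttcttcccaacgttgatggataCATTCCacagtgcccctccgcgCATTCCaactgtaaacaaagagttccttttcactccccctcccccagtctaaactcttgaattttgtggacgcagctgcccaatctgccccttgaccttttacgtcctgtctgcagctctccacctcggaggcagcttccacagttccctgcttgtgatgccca
The core begins 103 bases before the start in Ccn1, 210 and 123 in Ankrd1 and 186 and 164 in Ajuba. Of 17 listed genes with a RefSeq promoter, 7 held it (41.2%: Ccn1, Ankrd1, Amotl2, Ajuba, Ptpn14, Axl and Crim1), against 14.4% of all 27025 RefSeq promoters, 12.8% of the 5228 tested genes with one, 14.9% of the genes called higher and 14.6% of those called lower. Myof, Lats2 and Wwc1 rose and had no such letters in this window.

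Genes of bile duct cells and of Notch signalling rose together in the part of the list that could be tested. All 8 tested genes rose (19 in the table; 8 with equal totals; median 2.28), of which 7 without overlap, and Notch1 overlapped. Spp1, osteopontin, was at 104, 71.5, 261 and 632 against 3.33 to 26.6, median 12.7 (log2 difference 4.04, SE 0.43, adjusted p = 2.68e-07), highest in replicate 4. Bicc1, an RNA-binding protein of ducts, was at 71.9, 45.7, 75.6 and 95.4 against 0 to 5.52, median 2.51, 28.9-fold higher (log2 difference 4.54, SE 0.40, adjusted p = 1.53e-08). Jag1, a Notch ligand, was at 28.3, 23.5, 53.9 and 49.7 against 1.07 to 9.97, median 4.62 (log2 difference 2.70, SE 0.35, adjusted p = 4.42e-06). Krt8 and Krt18, the keratin pair of simple epithelia, which hepatocytes express as well, were at 469.5, 276, 472 and 505 and 378, 246, 365 and 425 against 80.4 to 109 and 58.9 to 98.7 (log2 differences 2.18 and 2.22). The defining duct keratins stayed near 0: Krt19 was at 0.995, 0, 1.02 and 3.24 against 0 to 1.43, and Krt7 at 0, 0, 3.76 and 3.97 against 0 to 1.07. The duct genes Epcam and Sox9 did not pass the filter either, Epcam at 1.57, 0, 2.51 and 10.9 against 0 to 1.16 and Sox9 at 6.29, 2.04, 7.53 and 8.94 against 0 to 2.13. Summed over 6 duct markers the dN90 induced livers held 73.5 to 659 and the others 5.21 to 27.8, with Spp1 the only tested marker and Tspan8 at 0 in the non-tumour livers. Spp1 made up most of that sum, with a mean of 267 where the sum had a mean of 281 in the dN90 induced livers. The part of duct cells in these differences was not tested.

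A pair of fetal liver genes rose steeply. Gpc3, glypican-3, a surface proteoglycan used as a marker of hepatocellular carcinoma, was at 139, 109, 159 and 240.4 against 0 to 2.13, median 1.13, 204-fold higher (log2 difference 6.58, SE 0.31, adjusted p = 3.45e-12). H19, an imprinted noncoding RNA on chromosome 7, was at 35.4, 15.3, 148 and 70.5 against 0 to 1.37, from 249 estimated reads in the dN90 induced and 2 in the non-tumour livers, a ratio of 187 with an exact interval of 51.3 to 1554 for counting error (log2 difference 5.31, SE 0.55, adjusted p = 1.64e-07). Its imprinted neighbour Igf2 did not pass the filter (2.06, 0, 5.32 and 0.866 against 0 in all 7). Afp, alpha-fetoprotein, did not pass it either (0, 2.04, 0 and 3.97 against 2.30 to 9.25, median 6.58). Igfbp1 and Scd2 rose (log2 differences 2.72 and 2.06), so that 4 of 11 tested members of the list were higher, and 2, Igf1 and Igfals, were lower (8 and 2 with equal totals).

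By size, among called genes without overlap whose dN90 mean reached 100, the leading rises were Gpc3, Prss57, Emp2, Fmo2, Spp1, Ahnak, Nid1, Ppl, LTO1 and Gfer. Prss57, a serine protease, was at 45.6, 71.4, 223 and 361 against 0 to 4.60, median 1.64 (log2 difference 5.63, SE 0.46, adjusted p = 5.68e-09). Emp2, an epithelial membrane protein, was at 119.5, 132, 96.6 and 139 against 1.37 to 12.7, median 3.47 (log2 difference 4.58, SE 0.29, adjusted p = 1.35e-10). Both were low in the non-tumour livers and well above that range in each dN90 induced liver. Ppl, periplakin, which ties keratin filaments to junctions, was at 96.7, 77.5, 140.5 and 133 against 4.26 to 21.4, median 13.3 (log2 difference 3.03, SE 0.30, adjusted p = 9.59e-08). Gfer, the liver regeneration factor ALR of the mitochondrial intermembrane space, was at 86.5, 115, 148 and 146 against 8.31 to 39.5, median 26.5 (log2 difference 2.56, SE 0.25, adjusted p = 5.96e-08). LTO1, which helps ABCE1 gain its iron-sulfur clusters, was at 603, 361, 1087 and 1484 against 62.4 to 267, median 109.8 (log2 difference 2.84, SE 0.35, adjusted p = 1.7e-06). It lies on the plus strand of chromosome 7 from 144915100 to 144931701 (mm10) and overlaps the end of Ccnd1, on the minus strand from 144929931 to 144939925, and since the counting is not stated to use strand, reads of the 2 genes may have been shared.

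**Figure D4:**
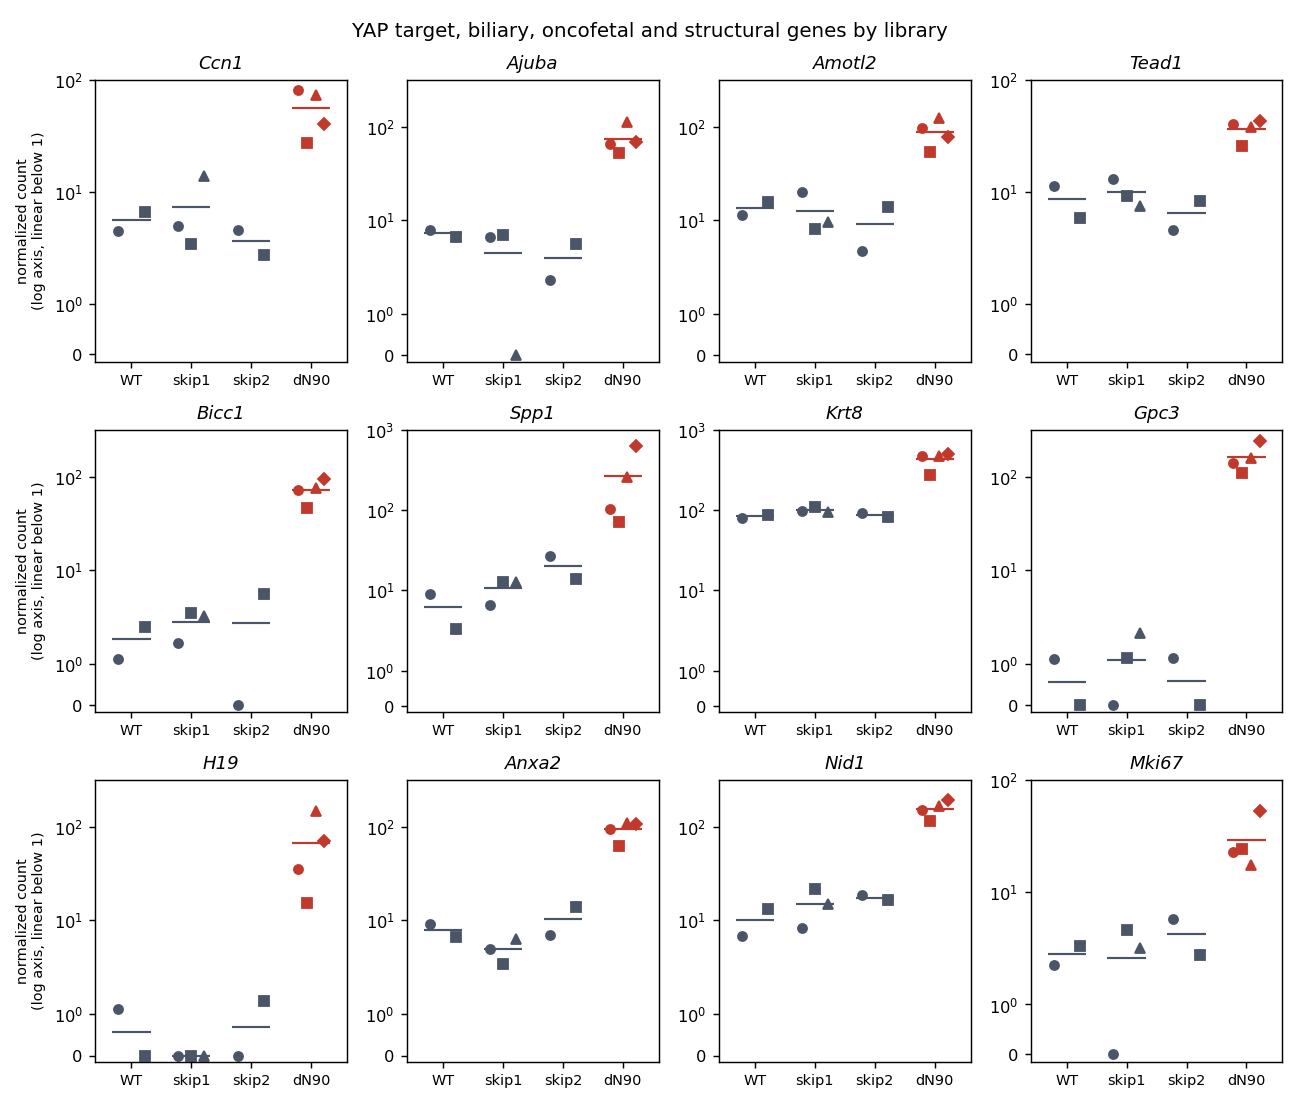
Normalized counts of YAP targets and Tead1, biliary list genes (Bicc1, Spp1, Krt8), Gpc3 and H19, and Anxa2, Nid1 and Mki67 in each library (logarithmic axis, linear below 1). Grey points are wild type (WT), skip1 alone and skip2 alone livers, red points dN90 induced livers, marker shapes are replicates and bars are group means. For each gene plotted the 4 red points lie above every grey point.

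Genes of the cell cortex and of the matrix rose in large numbers. Of 32 tested annexin and cytoskeleton genes 24 rose and 1, Vcl, fell (2 fell without wild type replicate 1, none with equal totals; median 1.25). Ahnak, a giant scaffold under the membrane, was at 883, 795, 1218 and 1514 against 59.2 to 163, median 83.9, and its partner Anxa2 at 95.2, 62.2, 110.4 and 107 against 3.45 to 13.7, median 6.65, 11.6-fold and 12.8-fold higher (log2 differences 3.56 and 3.57, adjusted p = 7.51e-11 and 9.79e-10). Anxa3, Flna (filamin A) and Anxa5 followed (log2 differences 3.20, 2.43 and 2.30), and Actb, beta-actin, was not called (636, 433, 601 and 749 against 443 to 551, median 485).

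Of 23 tested matrix genes 15 rose and 1, Dcn, fell (2 fell without dN90 induced replicate 2, 20 rose and 1 fell with equal totals; median 1.18). The leading members belong to the basement membrane: Nid1, nidogen, was at 151, 114, 166 and 195 against 6.80 to 21.9, median 14.9 (log2 difference 3.43, SE 0.23, adjusted p = 4.12e-10), Lamb2 at 34.6, 26.5, 36.4 and 56.6 against 0 to 8.22, median 3.20 (log2 difference 3.39, SE 0.37, adjusted p = 4.18e-07) and Lama5 at 29.9, 25.5, 51.4 and 71.5 against 0 to 8.05, median 4.12 (log2 difference 3.30, SE 0.47, adjusted p = 1.32e-05). The fibrillar collagen genes Col1a1, Col1a2 and Col3a1 rose (log2 differences 2.46, 2.16 and 1.39), whereas Dcn, Reln and Ecm1, which resting stellate cells express, fell (-1.29, -1.24 and -2.11). Of the stellate list 3 of 9 tested members rose and 3 fell (4 and 3 with equal totals). Summed, 9 stellate and fibroblast markers ran from 127 to 288 in the dN90 induced and from 217 to 296 in the other livers.

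Proliferation genes rose from low levels. Mki67, the Ki-67 antigen of cycling cells, was at 22.8, 24.5, 17.6 and 52.7 against 0 to 5.78, median 3.20 (log2 difference 2.94, SE 0.39, adjusted p = 4.53e-06), highest in replicate 4 and without overlap. Top2a, topoisomerase II, was at 11.01, 8.16, 15.1 and 31.8 against 0 to 3.47, median 1.13 (log2 difference 2.73, SE 0.41, adjusted p = 2.28e-05). The replication helicase gene Mcm6 rose (2.23), and so did Cdkn1a, the p21 inhibitor of the cycle, at 8.66, 10.2, 11.3 and 10.9 against 0 to 3.33, median 1.07 (log2 difference 2.63, SE 0.51, adjusted p = 0.000394). Of 49 genes of this list with a value, 16 passed the filter, 11 of these rose and none fell (median 1.00; 15 and 0 with equal totals, 7 and 0 against the skip2 alone livers only). Aurka, a mitotic kinase, was not called (log2 difference -0.41) and was called lower without dN90 induced replicate 3 (-0.61).

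Genes of other liver cells moved in different directions. For endothelium 6 of 16 tested members fell and none rose (median -0.51). The 6 were Dnase1l3, Clec4g, Ehd3, Ptprb, Oit3 and Kdr. Dnase1l3 was at 7.08, 25.5, 11.3 and 8.94 against 38.1 to 71.4, median 49.03 (log2 difference -2.03, SE 0.25, adjusted p = 1.99e-06) and Clec4g at 3.93, 13.3, 16.3 and 6.95 against 27.2 to 40.7, median 34.3 (log2 difference -1.82, SE 0.26, adjusted p = 1.48e-05), while Stab1, Stab2 and Flt4, also expressed by sinusoids, and Pecam1, a marker of all endothelium, were not called (0.46, -0.16, 0.06 and 0.22). The endothelial markers (8 genes) summed to 247 to 350 in the dN90 induced livers against 350 to 425, the highest of the first just above the lowest of the second. With equal totals 4 fell and 4 rose, and without wild type replicate 2 or skip1 alone replicate 1 a single member rose. Wnt2, Wnt9b and Rspo3, through which central vein endothelium signals to hepatocytes, did not pass the filter.

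For macrophages 11 of 16 tested members rose and 1, Clec4f, fell (10 and 0 without dN90 induced replicate 3, 7 and 1 against the skip2 alone livers only, 12 and 0 with equal totals; median 1.02). Among the resident Kupffer cell genes, Clec4f fell (42.5, 68.4, 27.6 and 37.8 against 50.6 to 93.1, log2 difference -0.82, adjusted p = 0.00835; 0.0544 without that library), and Vsig4 and Cd5l were not called (log2 differences -0.44 and -0.32). The members that rose are shared by macrophages at large: Ctss, cathepsin S, was at 59.8, 59.1, 74.02 and 98.4 against 11.3 to 26.1, median 21.97 (log2 difference 1.75, SE 0.23, adjusted p = 3.51e-06), and Csf1r, the receptor for their growth factor, at 103, 95.9, 86.5 and 154 against 48.7 to 63.2, median 53.2 (log2 difference 1.000, SE 0.17, adjusted p = 8.16e-05). Summed, 9 macrophage markers ran from 293 to 456 in the dN90 induced and from 234 to 340 in the other livers, which overlapped. MHC class II genes rose with them, H2-Eb1 at 84.9, 76.5, 61.5 and 152 against 8.52 to 21.6, median 18.1 (log2 difference 2.50, SE 0.28, adjusted p = 5.63e-07) and H2-Ab1 at 55.8, 73.5, 43.9 and 126 against 10.7 to 19.2, median 13.6 (log2 difference 2.25, SE 0.23, adjusted p = 1.76e-07). In the antigen presentation list 8 of 15 tested members rose and 2, H2-Q10 and B2m, fell (11 and 1 with equal totals). T and NK cell, B cell and neutrophil genes did not pass the filter; their marker sums were 2.51 to 8.17, 0 to 5.10 and 2.57 to 5.63 in the dN90 induced livers against 0 to 2.13, 0 to 2.79 and 0 to 4.35. Hepatocyte markers (9 genes) summed to 27174 to 34825 against 67067 to 89474. In the mean Alb made up most of that sum in the non-tumour livers, and Trf and Apoa1, also in it, were not called. How far the mix of cells set these differences was not tested.

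Drug and lipid metabolism was mostly lower. Of 32 tested P450 genes 20 fell and 3 rose (median -1.35; 17 and 6 with equal totals), led within this list, which leaves out the male-biased Cyp4a12a and Cyp7b1, by Cyp2f2 and then Cyp3a11, the main drug-metabolizing P450, at 164, 118, 58.95 and 33.8 against 1505 to 2414, median 1921 (log2 difference -4.59, SE 0.35, adjusted p = 2.99e-09), and Cyp2u1 (-4.47). Cyp39a1, Cyp26a1 and Por, the reductase that serves all of them, rose (1.66, 1.82 and 1.04). Por lost the call without wild type replicate 2 or dN90 induced replicate 1 or 3 (adjusted p = 0.0536, 0.0624 and 0.0593). Of 31 conjugation enzymes 19 fell and 2 rose (14 and 4 with equal totals). Sult2a8, a sulfotransferase, was at 1.57, 2.04, 2.51 and 1.99 against 132 to 223, median 210.2 (log2 difference -5.96, SE 0.24, adjusted p = 3.47e-13), whereas its relative Sult1a1 rose without overlap (530.1, 472, 527 and 314 against 76.5 to 123, log2 difference 2.14, adjusted p = 5.68e-09). Of 12 carboxylesterases 11 fell (median -1.98; 7 with equal totals), among them Ces3a at 25.8, 15.5, 11.6 and 5.10 against 957 to 1451, median 1146 (log2 difference -6.42, SE 0.31, adjusted p = 3.77e-12).

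Bile acid genes fell in 12 and rose in 2 of 20 (median -0.87; 10 and 6 with equal totals). Abcb11, the export pump of bile salts, was at 116, 91.9, 76.6 and 74.6 against 415 to 653, median 486 (log2 difference -2.52, SE 0.18, adjusted p = 1.2e-09), while Cyp7a1, the rate-limiting enzyme of the classic pathway, overlapped (69.2, 81.6, 60.2 and 69.5 against 19.9 to 136, log2 difference 0.25, not called). The efflux pump Abcc4 and the transporter Slco1a4 rose (2.11 and 1.57).

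Fatty acid oxidation genes fell in 16 and rose in 1, the uptake gene Cd36, of 27 tested (median -0.73; 9 fell and 5 rose with equal totals, and 2 rose without dN90 induced replicate 4). Acsl1, which activates fatty acids, was at 169.9, 166, 104 and 144 against 357 to 653, median 474 (log2 difference -1.75, SE 0.21, adjusted p = 9.54e-07), and Ppara, the nuclear receptor that drives them, was not called (-0.44). In cholesterol synthesis 9 of 24 rose and 5 fell (14 and 2 with equal totals). Srebf2, its master regulator, was at 72.4, 73.5, 67.7 and 57.6 against 21.96 to 42.6, median 29.6 (log2 difference 1.19, SE 0.18, adjusted p = 2.7e-05), while the late enzyme genes Tm7sf2 and Ebp fell (-1.38 and -1.21). Of 16 fatty acid synthesis genes 6 fell and 1 rose (4 and 3 with equal totals), led by Me1, malic enzyme (18.9, 12.3, 15.1 and 24.9 against 57.7 to 168, log2 difference -2.47, adjusted p = 6.89e-07), and Fasn was not called (-0.07).

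In glycolysis 5 of 16 tested genes rose and 5 fell (8 and 1 with equal totals). Pkm, the pyruvate kinase of fetal and tumour tissue, was at 42.5, 43.9, 40.1 and 47.7 against 12.8 to 21.96, median 18.4 (log2 difference 1.26, SE 0.18, adjusted p = 1.52e-05), with no overlap, and Aldoc, an aldolase, rose (1.25). Pgam1, phosphoglycerate mutase, fell (-1.39), and the liver pyruvate kinase Pklr was not called (log2 difference -0.70; -1.01 and called lower without dN90 induced replicate 2).

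Amino acid and one-carbon enzymes fell in 24 of 28 tested (median -1.33; 18 fell and 1 rose with equal totals, 21 and 1 without dN90 induced replicate 4). Gldc, of the glycine cleavage system, was at 4.72, 13.3, 6.27 and 0.993 against 34.7 to 174, median 65.9 (log2 difference -3.80, SE 0.40, adjusted p = 2.35e-07) and Kmo, of the kynurenine pathway, at 58.99, 59.2, 58.95 and 19.9 against 153 to 207, median 195 (log2 difference -2.004, SE 0.26, adjusted p = 3.63e-06). Mat1a, which makes S-adenosylmethionine, was not called (log2 difference 0.47), though it was called higher without dN90 induced replicate 4 (0.64) and with equal totals (1.01). Of 68 nuclear-encoded respiratory chain genes 57 fell and none rose (median -0.96); with equal totals 22 fell and 1 rose. Uqcrfs1, the Rieske protein of complex III, was at 30.7, 25.5, 13.8 and 25.8 against 68.7 to 96.4, median 72.5 (log2 difference -1.71, SE 0.20, adjusted p = 1.17e-06). Cytosolic ribosomal protein genes, 73 tested, gave 10 rises and no falls (median 0.28), 59 rises with equal totals, and 6, 6, 6 and 3 rises without skip2 alone replicate 2 or dN90 induced replicates 1, 3 and 4. The 10 rises are 13.7% of the list, below the 17.6% called higher over all genes tested. Against the wild type livers alone 2 rose, and against the skip2 alone livers only 2 rose.

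Among plasma defence genes, complement and coagulation members fell in 20 of 29 and rose in none (median -0.97; 15 fell and 5 rose with equal totals). The terminal complement genes C8a, C8b and C6 and the coagulation factor gene F11 fell most (log2 differences -4.69, -3.29, -3.14 and -3.80), C8a at 25.1, 20.6, 8.15 and 17.5 against 386 to 569.8, median 444 (adjusted p = 7.77e-12), while C3, the hub of the cascade, was not called (9965, 7884, 10477 and 10934 against 4308 to 8965, log2 difference 0.54; 1.08 and called higher with equal totals). Apolipoprotein and lipoprotein assembly genes fell in 12 of 16 and rose in none (9 and 2 with equal totals), led by Apoa2 (1208, 1004, 794 and 466 against 2202 to 3202, log2 difference -1.75, adjusted p = 2.16e-05). In the acute phase list 8 of 17 fell and 3 rose (6 and 7 with equal totals). The 3 rises are 17.6% of those tested, no more than the 17.6% of all genes tested, and the 8 falls are 47.1%, beside 20%. Saa1, serum amyloid A, was at 22.04, 10.2, 1.26 and 6.96 against 30.6 to 2385, median 168 (log2 difference -4.39, SE 0.59, adjusted p = 5.94e-06; -3.76 without skip2 alone replicate 1 and -3.77 without dN90 induced replicate 3), and among the non-tumour livers the skip2 alone pair held the highest values for Saa2, Orm2 and Lcn2. Against that group alone 9 members fell and none rose. Orm1, orosomucoid, was at 37.8, 25.5, 11.3 and 4.97 against 215 to 768, median 333 (log2 difference -4.46, SE 0.38, adjusted p = 1.26e-08), and Hp, haptoglobin, was not called (0.25).

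Smaller groups were mixed. In the iron list 9 of 23 fell, with Ftl1, ferritin light chain, at 665, 542, 558 and 524 against 1218 to 1835, median 1343 (log2 difference -1.28, SE 0.17, adjusted p = 5.71e-06), and 4 rose (3 and 8 with equal totals), among them Hamp2, a hepcidin gene (35.4, 31.6, 46.4 and 46.7 against 0 to 5.75, log2 difference 3.79, adjusted p = 6.79e-05). Of 15 NRF2 targets 6 fell and 3 rose (2 and 6 with equal totals). These counts ranged from 3 to 5 and from 1 to 2 without wild type replicate 2, skip1 alone replicate 2 or 3 or any 1 dN90 induced replicate. Rises are 17.4% of the iron list and 20% of the NRF2 list, near the 17.6% of all genes tested. Falls are 39.1% and 40%, beside 20%. Slc7a11, the cystine importer, rose (104, 82.6, 157 and 237 against 30.6 to 50.97, log2 difference 1.80, adjusted p = 8.47e-06). Of 18 interferon-stimulated genes 7 rose and 1 fell (12 and 0 with equal totals, 3 and 1 against the skip2 alone livers only; 2 fell without wild type replicate 1, skip2 alone replicate 1 or 2 or dN90 induced replicate 1), led by Ifit2 (24.6, 24.4, 29.3 and 22.1 against 0 to 3.43, log2 difference 3.36, adjusted p = 6.13e-08). Of 11 immediate early and stress genes 4 rose, Jun, Btg2, Egr1 and Fosl2 (2.94, 2.35, 2.25 and 1.91), and 2 fell (7 and 0 with equal totals), 1 of them not called without skip2 alone replicate 2 or dN90 induced replicate 2. Of 13 clock genes 4 rose and 1 fell (8 and 0 with equal totals), 2 rose without skip1 alone replicate 3 or dN90 induced replicate 2 or 3, and none was called with depth as a covariate, against wild type alone or against skip2 alone. Of 4 tested red blood cell genes Alas2, the erythroid heme enzyme, fell (12.02, 39.6, 21.7 and 15.8 against 101 to 131, log2 difference -2.48, adjusted p = 6.88e-07).

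**Figure D5:**
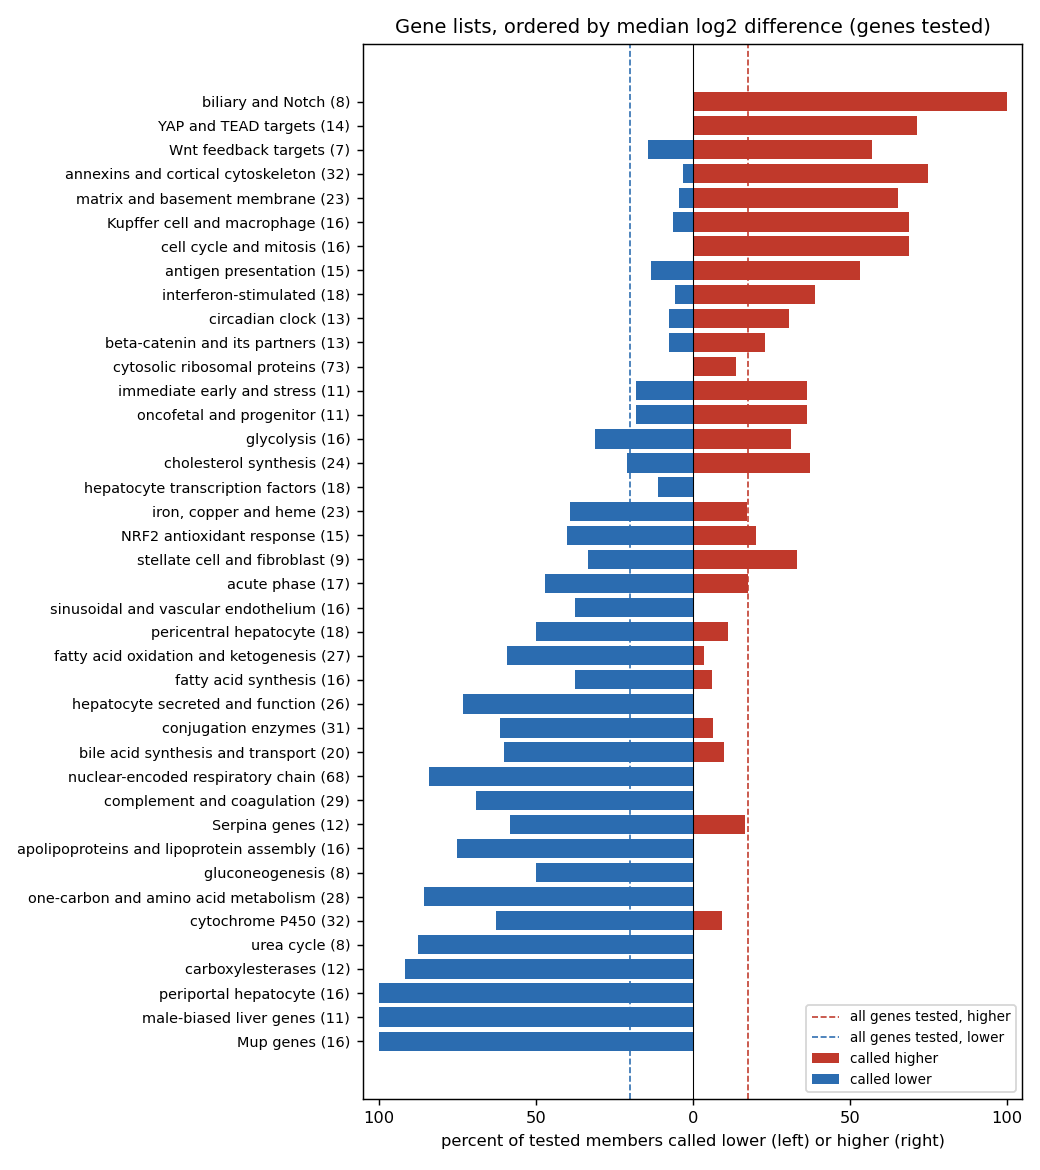
Percent of the tested members of each gene list that were called lower (blue, left) or higher (red, right) in dN90 induced livers, for lists with at least 6 tested genes (number in brackets), ordered by median log2 difference. Dashed lines give the percentages over all genes tested, 20% lower and 17.6% higher, and the Mup, male-biased and periportal lists reach 100% lower and the biliary and Notch list 100% higher.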

How the data were processed

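RNA sequencing of mouse liver was deposited as 1 table of normalized counts with 18 libraries, 11 of them used here, alongside z-scores, not used here. The signal values deposited by the authors are normalized counts. Per the submitters' processing notes the tools were FastQC, STAR, RSEM and DESeq2 with mm10, with no versions or order. Libraries were strand-specific per the labels. Whether counting used strand is not given in the sources used here. The values are not whole reads, so estimated reads per library were taken from the smallest step between low values.

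Values were tested as log2(value + 1) in genes whose mean over 18 libraries reached 10, with limma 3.58.1 in R 4.3.3: 6 group coefficients, dN90 induced against the library-weighted mean of the 3 non-tumour groups, a trended prior, two-sided, Benjamini-Hochberg over 6592 genes. The test was first run on simulated data. A Mup sum and depth used an exact permutation test. Intervals and floors (3 reads over a group, 95%) cover counting error only. Promoters came from RefSeq, GRCm38.p6. Alternatives were other pseudocounts, filters, scalings, reference groups, priors, weights and leaving out each library.

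Named were 12 preset genes, up to 10 genes a direction by size, up to 4 called genes a list, and other list members with a value. The gene lists and the genes in them were chosen with earlier results of these data known.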

Additional observations from a re-analysis of the deposited data

Results flagged for a closer look

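In the dN90 induced group each of 168 genes was checked for 1 library far from the other 3, and 11 were found. Chance finds about 1 in 20 only where values scatter normally, which values at 0 do not. Mup10, Mup14, Sds and Mup21 were at 0 in the other 3 libraries, where any read is flagged. Mup14, Sds and Mup21 rest on 1 estimated read each. In replicate 1 Mup10 was at 55.06, Sds at 0.7865 and Scd2 at 29.1. In replicate 2 Mup14 was at 1.02 and Fbp1, a gluconeogenic phosphatase, at 236.7. In replicate 3 Mup21 was at 1.254 and Tef, a clock output factor, at 154.5. In replicate 4 the urea cycle gene Arg1 was at 56.63, the complement gene C6 at 11.92, and the kynurenine pathway genes Kmo and Haao at 19.87 and 27.82.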

How the results depend on the processing

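The number of genes called was 926 with a mean of at least 50, 1499 against the wild type livers only and 3732 with voom on values rescaled to estimated reads, against 2480. The number called higher (1161) became 2054 with no filter, 285 with a mean of at least 50, 711 against wild type only, 763 against skip2 alone only, 3262 with voom, 3055 with equal totals and 2335 with equal totals without the Mup genes. The number called lower (1319) became 641 with a mean of at least 50, 788 against wild type only, 470 with voom, 550 with equal totals and 735 with equal totals without the Mup genes. Without 1 library the counts ranged from 2013 to 2532, from 905 to 1207 higher and from 1086 to 1325 lower, and the log2 difference of the Mup sum from -7.78 to -7.29. The log2 difference of Notum changed sign to 0.0427 with voom and 0.00611 with equal totals, that of Yap1 to 0.33, 0.301 and, without the Mup genes, 0.125, and that of Lrp6 to 0.13 and 0.074. The cause was not tested. Equal totals were chosen after seeing the data. Of 165 named genes called, 134 kept direction and call under every setting in which they were tested, and 11 lost the call without 1 library. With a mean of at least 50, only 94 of the 168 named genes were tested. No paired analysis was possible because the labels carry no replicate numbers, which were given in accession order. Genes under the filter, among them the T, B and neutrophil genes and most duct and mitosis genes, were not tested in the main analysis; with no filter 2054 genes were higher and 1462 lower.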

Other observations

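Over all genes tested the median SD of the log2 values was 0.329 in the 4 dN90 induced livers and 0.373 in the non-tumour livers. The genes given next stand near the top of a ranking by their spread within the dN90 induced livers, over genes with a mean of at least 100, and were chosen for it. The SD of the log2 values was 1.43 for Oat, 1.24 for Glul and 1.24 for Arg1 in the dN90 induced livers, against 0.34, 0.30 and 0.23 in the non-tumour livers. Replicate 4 was the lowest for Oat, Glul and Arg1, and for Cyp2c50, a hepatocyte P450, at 229, 170.5, 134 and 38.1. It was the highest for Spp1, at 104, 71.5, 261 and 632, and for Prss57, at 45.6, 71.4, 223 and 361. Not every gene followed that order: Pck1 was lowest in replicate 3, and Arg1 and Cps1 were alike in replicates 1 to 3, with Cps1 at 2797, 2324, 2649 and 617.

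Some genes moved against most of the called members of their list. Serpina7, which encodes thyroxine-binding globulin, was at 17.3, 8.16, 7.53 and 18.9 against 0.831 to 6.90 and rose (log2 difference 1.57, adjusted p = 0.00376, limma), as did Serpina6 (log2 difference 0.73), while 7 of 12 tested Serpina genes fell (6 fell and 2 rose with equal totals). Mt1, a metallothionein, was at 19.7, 18.4, 22.6 and 24.8 against 0 to 17.9 and rose without overlap (log2 difference 1.87, SE 0.51, adjusted p = 0.00621), in an acute phase list where 8 of 17 fell and 3 rose, the others being Lcn2 and Cp. H2-Q10, a class I gene of the liver, fell (650.4, 592, 537 and 419 against 1007 to 1334), as did B2m, while the class II genes H2-Eb1 and H2-Ab1 rose.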
